A study of Homo sapiens with 5 samples.

Results

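KITLG encodes KIT ligand, also called stem cell factor, and was measured here in KGN, a cell line derived from a human ovarian granulosa tumour. Its rows were those that carry the gene name KITLG in the table of estimated counts, which gave 5 transcript rows for 1 gene of 35453 gene names. Libraries of polyadenylated RNA were made after 24 h of FSH at 100 ng/mL, forskolin (FSK, which activates adenylate cyclase and so protein kinase A), SC79 at 4 µg/mL (an activator of AKT, or protein kinase B), the phorbol ester PMA (which activates protein kinase C), or no activator (control). The labels call the control untreated, while the written protocol gives it ethanol, and the sources differ on the unit of the FSK dose of 10 and the PMA dose of 0.1 (milli- or micromoles per litre). The medium of every group, control included, was charcoal-stripped DMEM/F12 to which androstenedione, a substrate of aromatase, was added at 100 nmol/L. Each group is 1 library of RNA pooled from 3 cultures made in different weeks, so no difference below has a replicate check, and no p-value was computed. Values are estimated counts scaled to a common library size. Ranges in brackets are exact 95% intervals of the counting error alone, and they are too narrow where PCR copied 1 molecule into several reads.

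KIT ligand is a cytokine that binds the receptor tyrosine kinase KIT. In the ovary of mice, granulosa cells make the ligand and oocytes and theca cells carry KIT, and the pair is needed for follicles to start growing and for the oocyte to enlarge. The ligand is made as a membrane protein in a longer and a shorter form that differ by 1 alternative exon. That exon encodes the main site at which proteases release soluble ligand, so the longer form is readily shed and the shorter form stays mostly on the cell surface.

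The gene (ENSG00000049130) lies on the minus strand at chr12:88492793-88580851 (GRCh38, GENCODE release 29). Of the 5 rows, KITLG-201 (ENST00000228280) is the coding transcript of the longer form, with 273 residues, and KITLG-202 (ENST00000347404) that of the shorter form, with 245 residues. KITLG-204 (ENST00000378535) is annotated as a processed transcript with no coding sequence, starts in a first exon of 72 bases inside the gene and ends in a last exon of 4389 bases, against 600 bases for the last exon of KITLG-201. KITLG-203 and KITLG-205 are short coding fragments of 565 and 555 bases. The alternative exon at chr12:88515534-88515617 has 84 bases, or 28 codons, the first of which touches residue 174 of the longer form. It is shown with the joints that tell the forms apart, read 5′ to 3′ on the gene's strand from the GENCODE transcripts of KITLG-201 and KITLG-202. Capitals mark bases of the alternative exon.

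Alternative exon: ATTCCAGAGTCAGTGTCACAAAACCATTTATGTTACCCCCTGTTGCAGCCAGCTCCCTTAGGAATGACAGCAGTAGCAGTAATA
Joint into the exon, longer form: taagtcctgagaaagATTCCAGAGTCAGTG
Joint out of the exon, longer form: GCAGTAGCAGTAATAggaaggccaaaaatc
Joint that skips the exon, shorter form: taagtcctgagaaagggaaggccaaaaatc

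Of 6291 distinct 31-base words in the KITLG transcripts of GENCODE release 29, 0 were found on the same strand in a transcript of another gene and 50 on the opposite strand, in the antisense gene AC024941.2. The library kit named in the labels' protocol does not mark strand, so reads over those words cannot be told apart between the genes. The sums over the KITLG rows were within 0.01 of a whole count in every library. Among the rows, sequence is widely shared. KITLG-202 was deposited as an earlier version than that of GENCODE release 29, so its length and words in the table are not known here. In the GENCODE version it has the same last exon of 4389 bases as KITLG-204, and counted with it KITLG-201 has 0 words of its own among 1612 and KITLG-204 has 71 of 5161. Leaving KITLG-202 out, KITLG-201 has 30 and KITLG-204 has 3860. The coding transcript KITLG-206 of the longer form is not among the 5 rows. It shares the alternative exon and the last exon of 4389 bases with KITLG-204. Any reads from it may thus be counted on KITLG-204, so the counts of that row need not be non-coding RNA. The split between rows therefore carries an error of assignment that no interval below covers, while the gene sum does not depend on it.

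**Figure D1:**
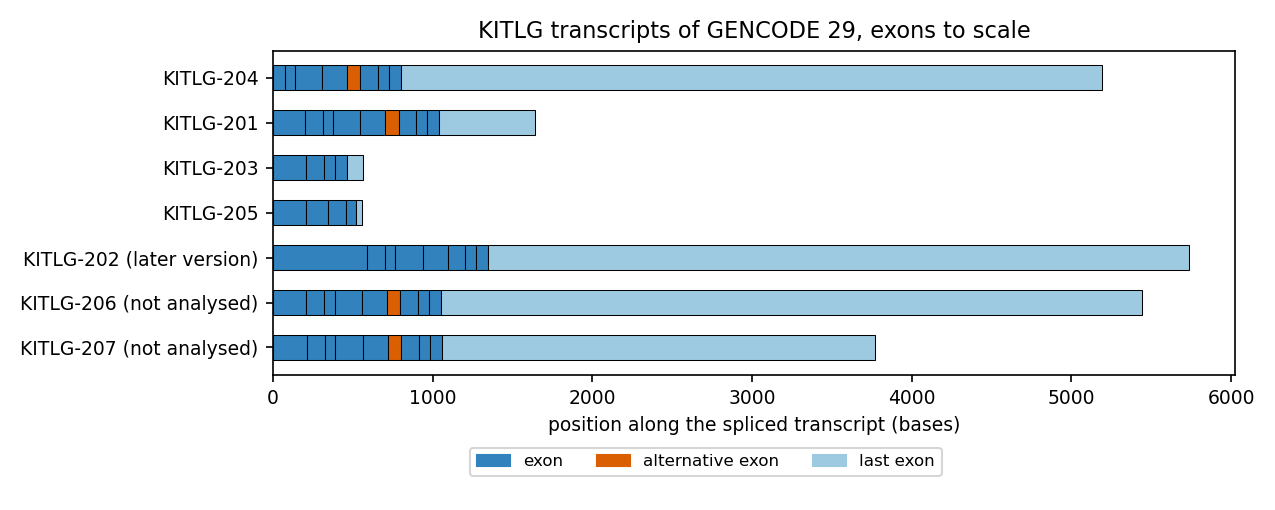
Exons of the 7 KITLG transcripts in GENCODE release 29, drawn to scale along each spliced transcript in bases, with the alternative exon of 84 bases and the last exon coloured. KITLG-204 holds the alternative exon and the last exon of 4389 bases, KITLG-201 a last exon of 600 bases, and KITLG-202 is drawn in its later version without the alternative exon.

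The library totals lay between 50253128 and 58849719 estimated counts. Granulosa markers were present: 10 of 10 had a mean of at least 20 scaled counts, with FOXL2 between 5458 and 10392 and NR5A1 between 4684 and 5193. Others were low. FSHR, the gene of the FSH receptor, had 92.7 in control, 111 with FSH, 132 with FSK, 73.1 with SC79 and 36.6 with PMA. AMHR2 had 98.2 in control and 15.8 with PMA, and INHA had 61.5 in control. The 8 oocyte markers summed to 33.7 to 46.3 scaled counts over the 5 libraries, with BMP15, DAZL, FIGLA and OOSP2 at 0 throughout. The 5 mast cell markers summed to 20.2 to 47.2 with TPSAB1 at 0, the 3 theca markers to 10.3 to 28.3, and the 5 immune markers to 845 to 2231 with CD3E at 0, nearly all of it CD68. The 5 endothelial markers summed to 307 to 1009, highest with PMA, where PECAM1 made up 648, while the endothelial cadherin CDH5 had at most 2. The 6 epithelial markers, mostly KRT18, summed to 37306 to 62456, lowest with FSK. Whether these markers bear on the KITLG values was not tested, and fewer cells of a kind and less RNA per cell cannot be told apart in such libraries.

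KITLG was much lower with FSK than in control and close to control with the other 3 activators. Its level with FSK was 0.301 of control, and FSH, SC79 and PMA each left it within 1.2-fold of control. Of all genes tested, 93.7% lay within 1.2-fold of control with FSH, 90.7% with SC79 and 55.2% with PMA. The rows KITLG-201 and KITLG-204, which held most of the counts, were lower with FSK to a like extent.

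KITLG had 1761 scaled counts with FSH, 603 with FSK, 1985 with SC79 and 1794 with PMA, against 2001 in control. The FSK library stood alone at the low end, and the other 4 lay between 1761 and 2001. In order of level, control came first and SC79 next, then PMA, FSH and FSK. SC79 and control did not differ beyond counting error, at a ratio of 0.992 [0.932 to 1.06], nor did FSH and PMA, at 0.981 [0.919 to 1.05]. PMA was below SC79, at 0.904 of it [0.847 to 0.965].

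**Figure D2:**
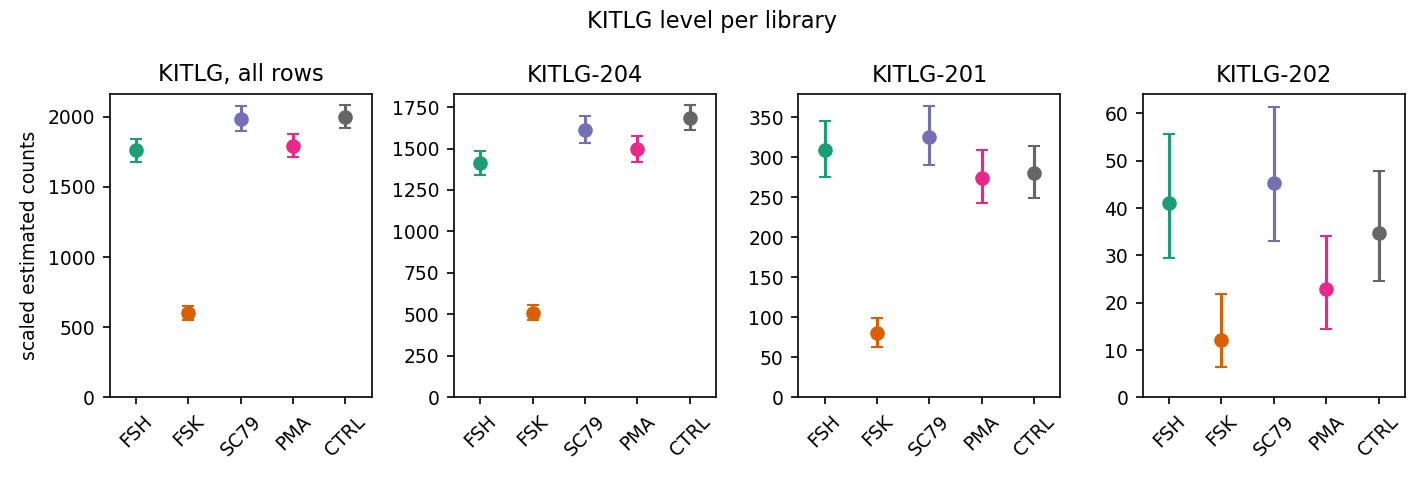
Scaled estimated counts of KITLG summed over its rows and of 3 single rows (y axes, from 0) in each of 5 libraries, with exact 95% Poisson intervals for counting error. FSK gives the lowest point in every panel, with 603 scaled counts against 2001 in control for the summed rows.

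The comparison of FSK with control bears on raising cAMP without the receptor. With FSK, KITLG had a log2 ratio of -1.73, or 0.301 of control [0.274 to 0.330]. Of 12610 genes in that comparison, 5.43% lay 2-fold or more below control and 4.13% lay 2-fold or more above it, and 242 (1.92%) had a lower ratio than KITLG. In the same library PDE3A, a phosphodiesterase that breaks down cAMP, reached 1376 scaled counts, compared with 22.0 in control, and STAR, which moves cholesterol into mitochondria, reached 10091, compared with 1012.

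The comparison of FSH with control concerns the hormone itself, whose receptor is coupled to cAMP as well. KITLG had a log2 ratio of -0.18 with FSH, or 0.880 of control [0.826 to 0.938]. This was short of 2-fold, a distance that 0.305% of 12473 genes passed upward and 0.104% downward, and 6.61% of genes had a lower ratio. STAR had 3535 scaled counts with FSH. Set directly against each other, KITLG with FSK was 0.342 of its level with FSH [0.311 to 0.376], in a comparison where 4.52% of 12609 genes lay 2-fold or more below and 3.31% above.

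With SC79, KITLG had a log2 ratio of -0.01 to control, and 48.8% of genes had a lower ratio. In this library NQO1, a quinone reductase of the oxidative stress response, had 22952 scaled counts against 8669 in control, while only 0.224% of 12484 genes lay 2-fold or more above control and 0.0401% below it. Relative to FSH, KITLG with SC79 was at 1.13-fold [1.06 to 1.2], short of the 2-fold that 0.192% of 12507 genes passed upward and 0.328% downward.

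With PMA, KITLG had a log2 ratio of -0.16, or 0.897 of control [0.842 to 0.955]. Many other genes differed with PMA, with 3.64% of 12648 genes 2-fold or more above control and 3.62% below it. Among them TFPI2, an inhibitor of serine proteases, had 16104 scaled counts against 191 in control. KITLG with PMA was 2.98-fold its level with FSK [2.71 to 3.28], where 5.8% of 12696 genes lay 2-fold or more above FSK and 5.13% below it.

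Most KITLG reads were assigned to KITLG-204, which held 80.1% of the gene's estimated counts with FSH [78.2 to 82.0], 84.7% with FSK [81.5 to 87.6], 81.2% with SC79 [79.4 to 83.0] and 83.3% with PMA [81.5 to 85.03], against 84.2% in control [82.6 to 85.7]. Its last exon makes up 84.6% of its length. Reads of the coding KITLG-206, which has the same last exon, may be among its counts. Per kilobase the rows were nearer to each other, with 94.0 estimated counts for KITLG-204 and 46.6 for KITLG-201 with FSK, against 353 and 186 in control.

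KITLG-201, the coding row of the longer form, had 309 scaled counts with FSH, 80.0 with FSK, 325 with SC79 and 274 with PMA, against 280 in control. With FSK its ratio was 0.286 [0.218 to 0.366], and its intervals with the other 3 activators all held no difference. KITLG-204 had 1411 scaled counts with FSH, 510 with FSK, 1613 with SC79 and 1495 with PMA, against 1685 in control. Its FSK ratio of 0.303 [0.274 to 0.335] lay inside the interval of KITLG-201. With FSH, KITLG-204 was at 0.838 of control [0.781 to 0.898], while KITLG-201 was at 1.10 with an interval that held no difference [0.938 to 1.30]. Of the reads on these rows, KITLG-201 took 18.0% with FSH [16.2 to 19.9], against 14.2% in control [12.8 to 15.8], the only pair with control among the 4 activators whose intervals did not overlap. These intervals leave out the error of assigning reads between the rows, so whether the split shifted cannot be told. By the assigned counts alone, the lower gene sum with FSH lay in KITLG-204, and summing only the rows with a protein-coding biotype gave a log2 ratio of 0.16. That sum leaves out KITLG-204, which may hold reads of the coding KITLG-206, so it need not cover all coding KITLG RNA.

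KITLG-202, the shorter membrane form, was scarce, with 41.1 scaled counts with FSH, 12.2 with FSK, 45.2 with SC79 and 22.8 with PMA, against 34.7 in control. Its FSK ratio was 0.351 [0.171 to 0.703], and the intervals for FSH, SC79 and PMA held no difference. Of the estimated counts on the full coding rows of both forms, the longer form KITLG-201 held 88.3% with FSH [84.4 to 91.5], 86.8% with FSK [77.4 to 92.8], 87.8% with SC79 [83.8 to 91.0] and 92.3% with PMA [88.7 to 95.1], against 89.0% in control [85.4 to 92.3]. These are shares of counts, not of molecules. They were not divided by length, which in GENCODE is 1642 bases for KITLG-201 and 5737 for KITLG-202. All these intervals overlapped, but they leave out the error of assigning reads between the rows. Whether the forms shifted cannot be told from them. The rows that hold the alternative exon, KITLG-201 and KITLG-204 together, took between 97.6% and 98.6% of the gene's counts, although most reads of KITLG-204 need not touch that exon. KITLG-203 had at most 2.88 estimated counts and KITLG-205 at most 1.85, both under the floor of 3 counts, so no fold is given.

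**Figure D3:**
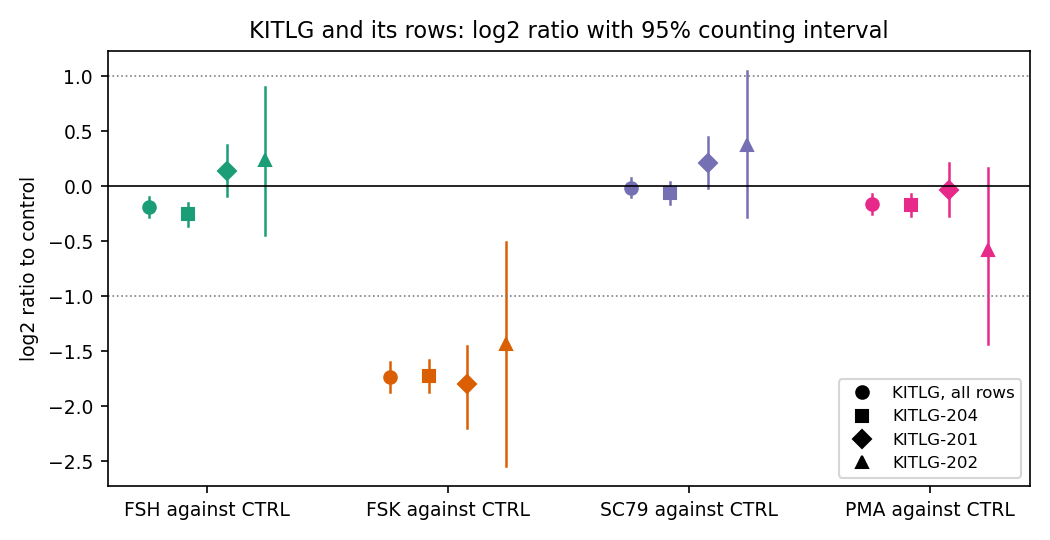
Log2 ratio of each activator to control (y axis) for the summed KITLG rows and for KITLG-204, KITLG-201 and KITLG-202, with exact 95% intervals for counting error, and dotted lines at 2-fold. All 4 points with FSK lie below -1, while the points with FSH, SC79 and PMA lie between -1 and 1.

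In the authors' deposited table, which gives a log2 fold change and p per transcript, KITLG-201 was at -1.81 with FSK (p = 0.0994, adjusted p = 0.820) and KITLG-204 at -1.72 (p = 0.111, adjusted p = 0.858). KITLG-202 was at -1.50 in the authors' deposited table (p = 0.196, adjusted p = 1). For the FSH, SC79 and PMA comparisons, the authors' deposited table has an adjusted p of 1 for each KITLG row. How the dispersion behind these p-values was set with 1 library a group is not given in the sources used here.

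KITLG lay near the middle of the expressed genes in control. Scaled by GENCODE transcript lengths, with that of the later version for KITLG-202, it had 20.2 TPM with FSH, 6.43 with FSK, 22.4 with SC79 and 21.2 with PMA, against 21.9 in control. In the FSK library 16.5% of the genes with at least 100 scaled counts lay below it on this scale, against 43.4% in control. Its receptor was near absent: KIT had 6 estimated counts with FSH, 4 with FSK, 5 with SC79 and 6 with PMA, against 3 in control, and no ratio is read from these.

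KITLG belongs with the ligands of the class III receptor tyrosine kinases, which also include CSF1 and IL34 (ligands of CSF1R), FLT3LG (ligand of FLT3) and the platelet-derived growth factors. On that length scale, PDGFC at 169 TPM and PDGFA at 58.4 TPM lay above KITLG in control, and PDGFD at 18.3, CSF1 at 15.8, FLT3LG at 12.8, IL34 at 10.8 and PDGFB at 2.82 lay below it. This list and the other gene lists below were chosen with earlier results of these data known, so their counts are a description. All 7 other ligands passed the minimum mean of 20 scaled counts. With FSK, 3 of them were at least 2-fold lower and 1 was at least 2-fold higher, against 5.43% of all genes lower and 4.13% higher. Their median log2 ratio was -0.93, against 0.01 over all genes tested.

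IL34 had 99.4 scaled counts under FSK, compared with 423 in control, a ratio of 0.235 [0.186 to 0.293]. PDGFB was at 0.333 of control with FSK [0.246 to 0.447] and PDGFA at 0.446 [0.416 to 0.478]. PDGFC was at 0.526 [0.510 to 0.544], just short of 2-fold. PDGFD went the other way, with 9285 scaled counts under FSK, compared with 1635 in control, or 5.68-fold [5.40 to 5.98], and its level with FSK was 103 TPM, above that of KITLG at 6.43 TPM. CSF1 was at a log2 ratio of 0.37. With FSK the ligands thus lay on both sides of control, with KITLG among the lower ones. The median of the 7 was -0.13 with FSH, -0.02 with SC79 and 0.07 with PMA, and the median over all genes was within 0.01 of control in all 4 comparisons.

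The other activators gave the related ligands different values. With PMA, PDGFB was 3.69-fold higher [3.16 to 4.33] and IL34 was at 0.395 of control [0.329 to 0.472], and these were the 2 ligands past 2-fold. CSF1 and PDGFA with PMA had log2 ratios of 0.77 and -0.43. With FSH and with SC79, 0 of the 7 ligands were past 2-fold. PDGFD was highest with FSH at 0.63, followed by FLT3LG at 0.13, with PDGFB and IL34 lowest at -0.31 and -0.16. With SC79 the highest were FLT3LG at 0.20 and PDGFD at 0.18, and the lowest PDGFA at -0.29 and PDGFB at -0.17.

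Of the 5 class III receptors, KIT and FLT3 were below the minimum mean. PDGFRA was abundant, at 117 TPM with FSK and 252 TPM with PMA, against 144 in control, and PDGFRB had 8.72 and 20.6 against 11.1. With FSK, PDGFRA and PDGFRB had log2 ratios of -0.30 and -0.34, and with FSH they were at 0.03 and 0.01. With SC79 they had 0.15 and 0.21. PMA gave 0.70 for PDGFRA and 0.61 for PDGFRB, and CSF1R, the receptor of CSF1 and IL34, was at least 2-fold higher, with 209 scaled counts against 56.9 in control.

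**Figure D4:**
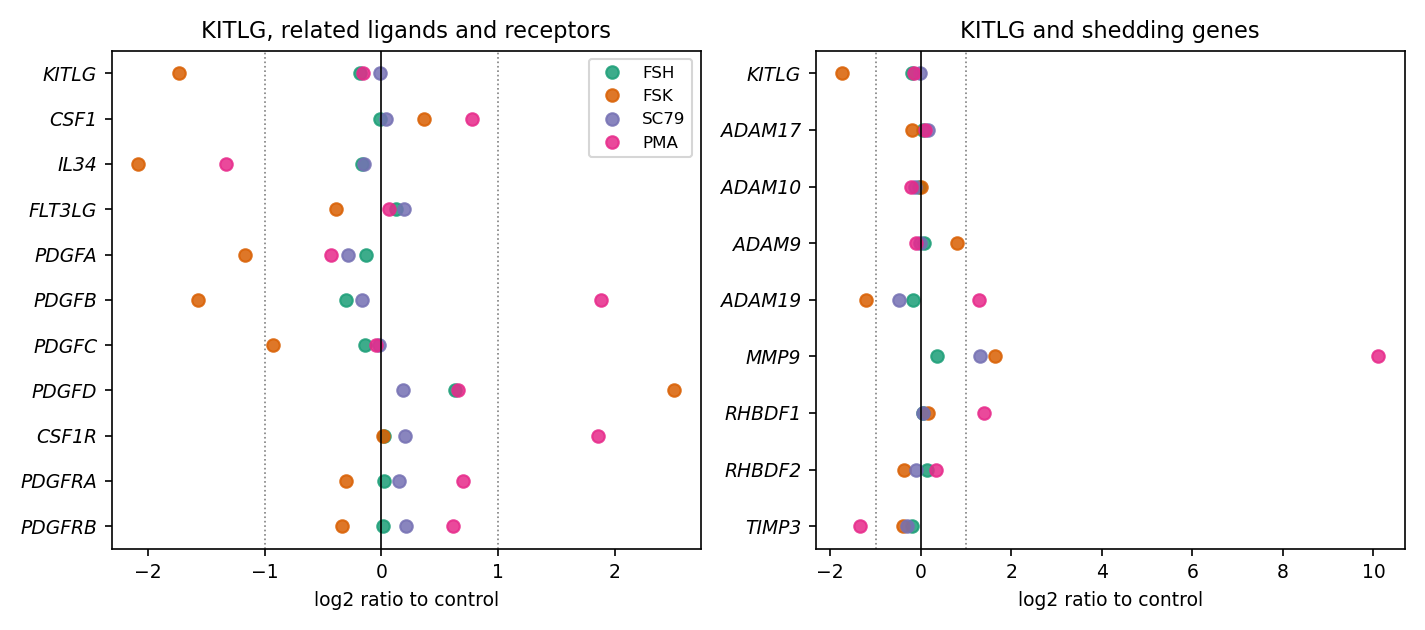
Log2 ratios to control (x axes) with FSH, FSK, SC79 and PMA for KITLG beside the related ligands and receptors (left) and beside genes of ectodomain shedding (right), for members with a mean of at least 20 scaled counts, with dotted lines at 2-fold. With FSK, KITLG lies at -1.73 near PDGFB at -1.57 and IL34 at -2.08, while PDGFD lies at 2.50, and with PMA MMP9 lies at 10.10 while KITLG lies at -0.16.

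Release of soluble KIT ligand needs proteases. Of 10 listed genes of shedding, 8 passed the minimum mean, MMP9 among them only through its PMA level. The median log2 ratio of the 7 others was 0.04 with FSH, -0.20 with FSK, -0.12 with SC79 and 0.09 with PMA. ADAM17, a metalloprotease that sheds many membrane ligands, differed little, with 3718 scaled counts with FSH, 3139 with FSK, 4050 with SC79 and 3843 with PMA, against 3612 in control. MMP9, a secreted metalloprotease that in mice frees Kit ligand in bone marrow, had 5124 scaled counts with PMA against 3.67 in control, a ratio between 545 and 5123-fold. RHBDF1, an inactive rhomboid that helps ADAM17 to mature, was at a log2 ratio of 1.40 with PMA and ADAM19, a related metalloprotease, at 1.28. TIMP3, a matrix-bound inhibitor of ADAM17, was lower with PMA, with 1204 scaled counts against 3053, or 0.394 of control [0.369 to 0.421]. ADAM10, another sheddase, was at -0.22 with PMA. With MMP9 left aside, 2 of the 7 others lay 2-fold or more above control with PMA and 1 below it, against 3.64% and 3.62% of all genes.

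With FSK only ADAM19 among the 7 shedding genes with at least 100 scaled counts was past 2-fold, at 0.432 of control [0.405 to 0.460]. The metalloprotease gene ADAM9 was next in size at a log2 ratio of 0.81, with TIMP3 at -0.39 and RHBDF1 at 0.15. With FSH and SC79, 0 of these 7 were past 2-fold, and MMP9 had at most 13.6 scaled counts in any library but that with PMA. With FSH, RHBDF2, the sister gene of RHBDF1, was at 0.13 and ADAM9 at 0.06, with TIMP3 at -0.20 and ADAM19 at -0.17. With SC79, ADAM17 was at 0.16 and RHBDF1 at 0.05, with ADAM19 at -0.47 and TIMP3 at -0.31.

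Of 26 listed genes of KIT signalling, KIT included, 24 passed the minimum mean, and 1 was past 2-fold in any comparison with at least 100 scaled counts. This was GAB2, a docking protein that binds the PI3 kinase regulatory subunit, with 7732 scaled counts under FSK, compared with 2344 in control, or 3.30-fold [3.15 to 3.45]. With FSK 4.13% of all genes were 2-fold or more above control. INPP5D had 33.0 scaled counts with FSH, 11.5 with FSK, 37.1 with SC79 and 4.96 with PMA, against 29.4 in control, all under the minimum of 100. Without its highest library it would fall just short of the minimum mean. The median log2 ratio of the 23 others was -0.01 with FSH, -0.04 with FSK, -0.00 with SC79 and 0.11 with PMA. With FSK, STAT3, a transcription factor that receptor kinases activate, was at 0.49, the SRC-family kinase gene LYN at -0.48 and MITF, a transcription factor downstream of KIT in melanocytes, at -0.45. With PMA, GAB2 was at 0.76 and LYN at 0.51, with the kinase gene JAK2 at -0.35 and MITF at -0.34. With FSH, GAB2 was at 0.23 and STAT3 at 0.10, with JAK2 at -0.14 and LYN at -0.11. With SC79, GAB2 was at 0.22 and LYN at 0.18, with SOCS1, a suppressor of cytokine signalling, at -0.21 and JAK2 at -0.18.

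KITLG is 1 of several signals and contacts between granulosa cell and oocyte. Of 24 other genes of this exchange, 19 passed the minimum mean. With FSK 6 were 2-fold or more above control and 2 below it, against 4.13% and 5.43% of all genes. HGF, a growth factor gene with 59.6 scaled counts in the FSK library and 11.9 in control, passed the minimum mean only through FSK, and the median log2 ratio of the 18 others was 0.34. The inhibin alpha gene INHA reached 922 scaled counts, compared with 61.5 in control, and IGF1, an insulin-like growth factor, reached 273, compared with 68.4. Both are among the 6 but met the minimum of 100 only through the FSK library. INHBA, FST, TGFBR1 and GJA1 were also higher, encoding an activin subunit, the activin antagonist follistatin, a receptor that GDF9 uses and the main gap junction protein of granulosa cells. INHBB, another activin subunit gene, had 13.6 scaled counts with FSK and 93.7 in control, under the minimum of 100 for the fold rule. The lower genes were GJC1, another connexin, at -1.41, and JAG1, a NOTCH ligand, at -1.29. KITLG and JAG1 were thus lower with FSK in the same library in which GJA1 had 79260 scaled counts against 34665 in control.

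With PMA 2 of the 19 were past 2-fold upward, the cytokine gene LIF at a log2 ratio of 1.80 and INHBA at 1.11, and JAG1 was lower at -1.63, against 3.64% of all genes higher and 3.62% lower. The receptor gene BMPR1B was next at -0.67, and IGF1 had 8.12 scaled counts with PMA and 68.4 in control, again under the minimum. Without HGF the median was 0.07 with FSH, -0.12 with SC79 and 0.18 with PMA. With FSH, 0 of the 15 members with at least 100 scaled counts were past 2-fold. TGFBR1 at 0.29 and INHBA at 0.26 lay opposite BMPR1B at -0.42 and JAG1 at -0.29. The same held for SC79, where 0 were past 2-fold, BMP6, a bone morphogenetic protein, was at 0.45 and NPR2, the receptor of the peptide NPPC, at 0.09, with GJC1 at -0.38 and JAG1 at -0.30.

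A list of 14 response genes was likewise chosen with earlier results of these data known, so its counts are a description. Those 2-fold or more above control numbered 4 in the FSH library (0.305% of all genes), 8 in the FSK library (4.13%), 2 in the SC79 library (0.224%) and 8 in the PMA library (3.64%). Under FSK and under PMA 2 each were 2-fold or more below it (5.43% and 3.62% of all genes). STAR and CYP19A1, the aromatase, were highest among them with FSH at log2 ratios of 1.80 and 1.51, with DUSP6, an ERK phosphatase, at -0.09 and FOSL1, an AP-1 subunit, at -0.08. PDE3A and CYP19A1 were highest with FSK at 5.90 and 4.93, with FOSL1 at -2.25 and SPHK1, a sphingosine kinase, at -1.64. NQO1 and AKR1B10, an aldo-keto reductase, were highest with SC79 at 1.40 and 1.23, with TFPI2 at -0.37 and SPHK1 at -0.23. MMP1, a collagenase, and TFPI2 were highest with PMA at 9.20 and 6.39, with NQO1 at -1.17 and FOSL1 at -1.07.

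The genes whose 4 log2 ratios to control were closest to those of KITLG, by Euclidean distance over 12622 genes with at least 100 scaled counts in 1 library, were LMCD1, MAP1B, SPDL1, CHAF1A, SIGLEC15 and RNASEH2A. Their distances were 0.14 to 0.27, over 4 comparisons that share the control library. LMCD1, a LIM domain cofactor, had 550 scaled counts with FSH, 200 with FSK, 602 with SC79 and 591 with PMA, against 619 in control. MAP1B, a microtubule-associated protein, had a ratio of -1.63 with FSK, and SPDL1, which recruits dynein to kinetochores, -1.91. CHAF1A, a chromatin assembly subunit of DNA replication, was at -1.63, SIGLEC15, a sialic acid-binding lectin, at -1.69 and RNASEH2A, a ribonuclease subunit, at -1.51. With FSH, SC79 and PMA the log2 ratios of all 6 lay between -0.26 and 0.02.

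The protein-coding genes beside KITLG on chromosome 12 had other values with FSK. TMTC3, a mannosyltransferase gene 293 kb away, had 3950 scaled counts under FSK, compared with 4078 in control, a ratio with an interval of 0.927 to 1.01. Beyond it, CEP290, a protein of the cilium base, was at a log2 ratio of -0.42 and C12orf29 at 0.18. On the other side DUSP6, at 766 kb, had a log2 ratio of -0.56 with FSK and 1.26 with PMA. Next to it POC1B, a centriole protein, was at 0.10 with FSK and GALNT4, which starts O-linked glycosylation, at 0.20. POC1B and GALNT4 overlap, as do C12orf29 and CEP290, so reads may be shared within these pairs. None of the 6 neighbours was at least 2-fold lower with FSK.

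**Figure D5:**
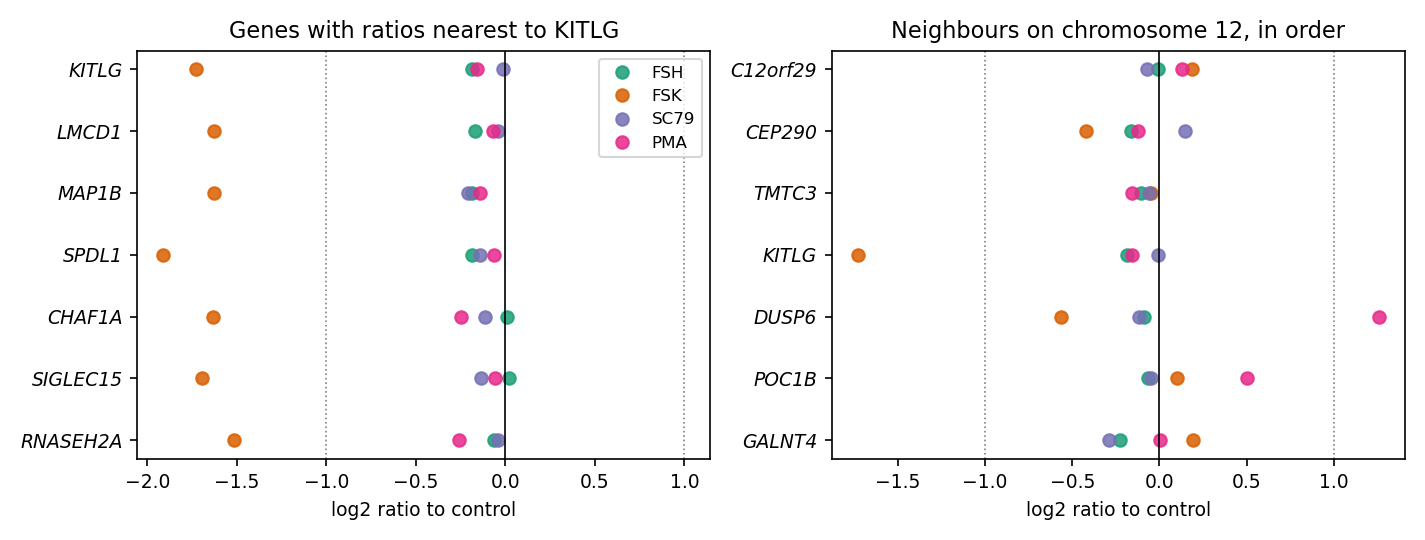
Log2 ratios to control (x axes) with FSH, FSK, SC79 and PMA for KITLG and the 6 genes with the nearest ratios (left) and for KITLG and the 3 nearest protein-coding genes on each side of it on chromosome 12 (right), with dotted lines at 2-fold. The 6 genes on the left lie between -1.91 and -1.51 with FSK, and the neighbours on the right between -0.56 and 0.20.

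The 250 bases before the RefSeq start of KITLG (GRCh38.p14, chr12:88580472-88580721, minus strand) were searched for short motifs on both strands. The annotated first exon of KITLG-204 lies elsewhere, at chr12:88534691-88534762, and the bases before it were not searched. In its GENCODE version, KITLG-202 has a first exon at chr12:88580264-88580851, which contains the window. The window held TATAAA once, its first base 29 bases before the start, a motif found in 10.7% of 35116 such windows over all RefSeq genes, and GGGCGG 2 times, found in 42.6%. It held 0 matches to the cAMP response element TGACGTCA (1.65% of windows), to its core TGACG (21.2%) or to the AP-1 motif TGANTCA (6.57%). The core lies within the full element, so these searches overlap. There were also 0 matches to the antioxidant response motif TGACNNNGC (10.9%), the FOXO motif GTAAACA (2.98%) and the steroidogenic factor motif CAAGGTCA (1.14%).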

How the data were processed

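RNA of 5 groups was sequenced, with 1 library each. The members and gene lists were chosen with earlier results of these data known. Per the submitters' processing notes, Trimmomatic, kallisto and edgeR were used; their versions, the transcript index and the genome build are not given in the sources. Libraries were paired-end from a kit that does not mark strand, per the labels' protocols. The authors deposited estimated counts per Ensembl transcript, a normalized signal (the estimated counts times 1 constant per library, 0.934 to 1.03, with totals not equalised), and, per transcript, a log2 fold change with its p-value, raw and adjusted. Columns were assigned to groups by their names.

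Estimated counts were summed over the rows of each gene name; 303 rows without a name (at most 0.0680% of counts) were left out. Sums were scaled to the mean library by TMM factors (edgeR 4.0.16, R 4.3.3). Counts were rounded to whole numbers only to compute scaling factors and intervals. Log2 ratios used a pseudocount of 1. A gene was past the fold rule at 2-fold or more if its higher library held 100 scaled counts or more, and a list counted members with a mean of 20 or more. Intervals are exact conditional binomial (Clopper-Pearson) for ratios and shares and exact Poisson for levels, at 95%. TPM was computed from the estimated counts with GENCODE 29 lengths, matched by transcript identifier without its version (91.0% of rows with a gene name; unmatched rows held at most 2.44% of counts). The ratio and interval code was tested on simulated counts. Named genes were KITLG, the 2 highest and 2 lowest ratios of each list per treatment among members with 100 scaled counts or more, the class III ligands and receptors, the 6 nearest genes by pattern (clone-named genes left out), the 3 coding neighbours on each side and the response checks; ADAM17 and the other members with values outside this rule were chosen after their values were seen. The alternatives changed the scaling (DESeq2 1.42.0 among them), the pseudocount, the rows summed and the minimum level. The other software was Python 3.11.15, scipy 1.17.1, pandas 2.3.3, numpy 2.4.6 and matplotlib 3.10.9.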

Additional observations from a re-analysis of the deposited data

Results flagged for a closer look

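KITLG-205, a fragment of 555 bases with at most 1.85 estimated counts in the 5 libraries, has a log2 fold change of 7.67 with LH in the authors' deposited table (p = 2.70e-04, adjusted p = 0.0168), in a comparison whose library was not analysed here. The same table gives LH values of 1.09 for KITLG-204, 1.39 for KITLG-201, 1.74 for KITLG-202 and 2.28 for KITLG-203, with adjusted p of 1, 1, 0.798 and 0.807.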

How the results depend on the processing

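No paired analysis was possible because each group has 1 library, and for the same reason none could be left out. The log2 ratio of KITLG with FSK lay between -1.90 and -1.71 over all settings. All 27 results compared moved within counting error (counts of genes by under 1.5 times) under DESeq2 size factors, library totals and pseudocounts of 0.5 and 10, as did the 15 recomputed with TMM on genes with a mean of 20 counts. Under library totals, values near 0 changed sign for the KITLG sum with SC79 (0.010) and KITLG-201 with PMA (0.033). The authors' normalized values, whose totals are not equalised, put the median of all genes at -0.16 with FSH and FSK, -0.28 with SC79 and -0.24 with PMA. On them the KITLG sum was at -0.34 with FSH, -1.90 with FSK, -0.28 with SC79, -0.39 with PMA and 0.054 for SC79 against FSH, KITLG-204 was at -0.41, -1.89, -0.34 and -0.41 with FSH, FSK, SC79 and PMA, and KITLG-201, above 0 on TMM, was at -0.055 with SC79 and -0.011 with FSH. Genes past 2-fold were then 16 higher and 17 lower with SC79 and 739 lower with PMA. With protein-coding rows only, which leave out KITLG-204, the KITLG sum turned to 0.16 with FSH and was 0.25 with SC79, -0.063 with PMA, 1.71 for PMA against FSK and -1.93 for FSK against FSH, and 18 genes were higher with SC79. With a minimum of 20 scaled counts, genes past 2-fold were 136 higher and 76 lower with FSH, 119 and 71 with SC79, and 720 and 693 with PMA. With no minimum they were 1272 and 1104 with FSH, 2737 and 2018 with FSK, 2082 and 1072 with SC79, and 2098 and 1769 with PMA, where low counts enter. The share of rows holding the alternative exon was 98.5% with FSH when counts were divided by length. Among coding rows KITLG-201 and KITLG-202 alone, a setting chosen after seeing the data, it was 88.3% with FSH, 86.8% with FSK, 87.8% with SC79 and 92.3% with PMA, against 89.0% in control. In the lists, leaving out MMP9, HGF and INPP5D, which reach the minimum mean only through their highest library, was also chosen after seeing the data. Depth limits KITLG-202, KITLG-203, KITLG-205 and KIT, and the spread between cultures is unknown for every value.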
